A study of Homo sapiens with 9 samples.

Results

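The genes of the condensin complexes and of the cohesin SMC core were followed in H1299 cells in which FIBP had been depleted. These are SMC2, SMC4, NCAPD2, NCAPG, NCAPH, NCAPD3, NCAPG2, NCAPH2, SMC1A and SMC3. They were chosen by gene symbol, and the values of all transcripts with the same gene identifier were summed. This gave 10 of the 60966 genes in the deposited data. All 10 were among the 14985 genes that passed the filter on low values, and each was at 7.96 FPKM or more in every sample. FPKM count fragments per kilobase of transcript, scaled to the mapped fragments of the library, so levels can be set side by side between genes.

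RNA-seq was performed on H1299, a long-used human line derived from non-small cell lung cancer. The cells had been transfected for 48 h with a scrambled siRNA (Scramble), with Si-FIBP#1 or with Si-FIBP#2. Each of the 3 groups had 3 samples labelled as replicates. Both FIBP siRNAs target the FIBP mRNA, and no group was left without transfection. The question for the genes described here is whether the members of condensin I, condensin II and cohesin changed together or differed in the depleted cells.

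Condensins and cohesin are ring-shaped complexes that entrap and loop DNA. Each is built on a pair of SMC proteins, long coiled-coil ATPases, whose heads are bridged by a kleisin subunit, and HEAT-repeat subunits bind to the kleisin. SMC2 and SMC4 are shared by both condensins. Condensin I adds the HEAT-repeat subunits NCAPD2 and NCAPG and the kleisin NCAPH, while condensin II adds NCAPD3 and NCAPG2 and the kleisin NCAPH2. Condensin II is nuclear throughout the cell cycle, condensin I reaches the chromosomes after the nuclear envelope breaks down, and together they compact the chromosomes in mitosis. Cohesin, built on SMC1A and SMC3, holds sister chromatids together and forms chromatin loops in interphase.

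FIBP fell from 77.7 to 88.4 FPKM in the Scramble samples to 4.30 to 7.77 FPKM in the Si-FIBP#1 samples and 5.92 to 8.21 FPKM in the Si-FIBP#2 samples. Of the markers of the line, VIM, KRT8, KRT18, NRAS and CDH2 were all detected in every group. They did not stay level, as KRT18 was called lower with both siRNAs (log2 fold change -1.19 and -1.45), VIM and KRT8 were lower and CDH2 higher in all 6 siRNA samples, and NRAS was higher with Si-FIBP#2 (0.29, limma adjusted p = 0.0129). The part of these shifts in the changes described next was not tested. In the same libraries 6 of 6 markers of differentiated lung epithelium were under 1 FPKM in every group. The library depths, estimated from how finely the low FPKM values are spaced, were 20200000 to 24200000 fragments. At this depth about 420 fragments stood behind the lowest value of NCAPH and about 11000 behind the highest value of NCAPD2. Samples within a group correlated at 0.983 to 0.988 and Scramble with siRNA samples at 0.956 to 0.964, as a description over genes, which are not independent replicates.

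The proximal promoters of these genes are shown first, so that the letters in front of their starts can be compared directly. RefSeq promoter windows (GRCh38.p14, 250 bases before to 50 bases after the start) were present for 9 of the 10 genes in 13 windows, and NCAPH2 had no entry. The motif TTTGAA, the core of the cell cycle genes homology region (CHR), was searched on both strands. It was found in 7 of the 9 genes, namely SMC2, SMC4, NCAPD2, NCAPG, NCAPD3, NCAPG2 and SMC3, and in 18.2% of all genes with a window (15.2% of 35116 windows). The 4 sites whose 30 bases lie wholly in front of the RefSeq start are printed here, 5′ to 3′ on the strand of the gene, which is the plus strand for all 4. Capitals mark the motif, which reads TTCAAA where it lies on the opposite strand. The NCAPG site is 35 bases before the start (chr4:17810932-17810961), the SMC4 site 75 bases (chr3:160399563-160399592), the NCAPD2 site 145 bases (chr12:6493945-6493974) and the SMC3 site 151 bases (chr10:110567532-110567561).
NCAPG: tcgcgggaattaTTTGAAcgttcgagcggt
SMC4: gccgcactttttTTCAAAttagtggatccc
NCAPD2: cagccgttgagaTTTGAActcggtatttgt
SMC3: cagaattctagaTTCAAAagaaatccacca
The motif began 3 bases before the start in SMC2 and in NCAPD3, and 36 bases after it in NCAPG2.

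NCAPH, the gene with the deepest fall with Si-FIBP#1, had no TTTGAA in its window. The palindrome TTCNNNGAA is the form of site that STAT proteins bind. It was found in 1 of the 9 genes, NCAPH, and in 9.38% of all genes with a window. A single match in 9 genes is near that share. The NCAPH match is printed because the study examined STAT3 together with FIBP. The site is 235 bases before the start, on the plus strand (chr2:96335521-96335550), and its capitals can be set against the CHR sites above, with which it shares no TTTGAA core.
NCAPH: agaaagtaaaTTCCACGAAagacgggcctt
The box CCAAT was found in NCAPD2, NCAPD3 and NCAPH (39.7% of all genes), and the E2F core GCGGGAA in NCAPD3, NCAPG and SMC1A (7.82% of all genes). These motifs were chosen after the expression values had been seen. A match is a run of letters in a fixed window and no measurement of binding, and binding was not measured here.

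All 10 genes were lower in FIBP-depleted cells. Each of the 6 siRNA samples was below each of the 3 Scramble samples for 10 of 10 genes, where 16.5% of all tested genes showed this. With Si-FIBP#1 the fall passed a Benjamini-Hochberg adjusted p of 0.05 in limma for 10 of 10 genes (19.9% of all tested genes), and with Si-FIBP#2 also for 10 of 10 (17.7%). SMC4, NCAPG, NCAPH and NCAPG2 fell by more than 2-fold as well and were called with each siRNA. This was 4 of 10 genes with Si-FIBP#1 (background 3.11%), 4 of 10 with Si-FIBP#2 (2.13%) and the same 4 with each of them (1.53%), and it was also 4 of 10 for both siRNAs in a single comparison against Scramble (2.45%). The median log2 fold change over the 10 genes was -0.89 for Si-FIBP#1 and -0.76 for Si-FIBP#2, and over all tested genes it was 0.073 and 0.11. Scaling by median ratios, which brought the median of all genes to -0.016 and -0.018, put the median of the 10 genes at -0.99 and -0.90, with 5 and 4 genes called. All fold changes are on the log2(FPKM + 1) scale, which slightly understates the change of the lower genes. The comparisons with Scramble share their 3 control samples, so their values are given side by side and are not independent of each other. In bulk RNA, fewer cells that express a gene and less RNA per cell cannot be told apart.

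**Figure D1:**
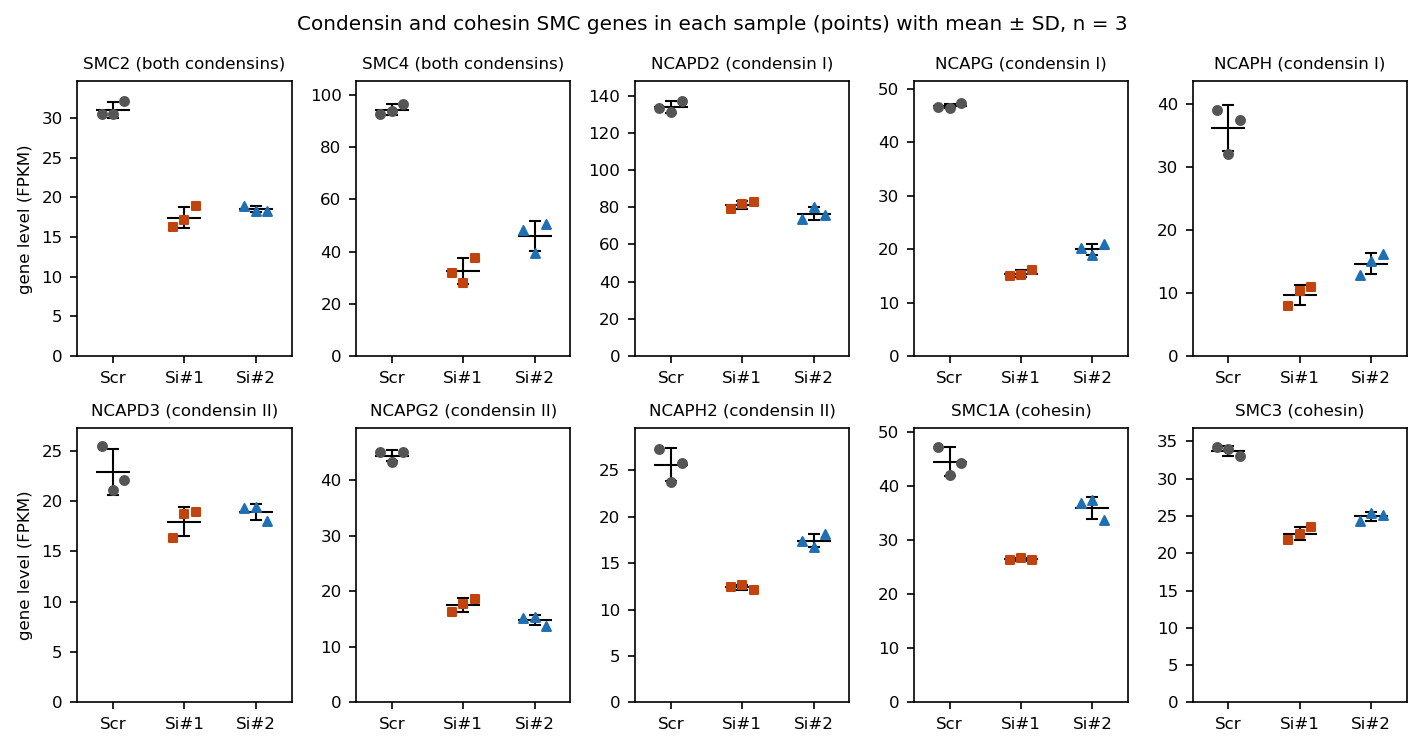
Level of each gene in FPKM (vertical axes, each from 0) in the 3 Scramble (Scr), 3 Si-FIBP#1 (Si#1) and 3 Si-FIBP#2 (Si#2) samples, with points for samples, horizontal lines for means and bars for the SD. In each of the 10 panels all 6 siRNA samples lie below all 3 Scramble samples, with the narrowest gap for NCAPD3 (19.36 against 21.12 FPKM).

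The shared SMC core of the condensins fell unevenly. SMC4, the partner of SMC2 in every condensin, was at 92.55, 93.74 and 96.70 FPKM in Scramble, at 31.77, 28.08 and 37.66 FPKM in the Si-FIBP#1 samples and at 48.33, 39.54 and 50.45 FPKM in the Si-FIBP#2 samples. The depleted samples lay far below the controls, and the Si-FIBP#1 samples also lay below the Si-FIBP#2 samples. The means were 94.3 ± 2.14, 32.5 ± 4.83 and 46.1 ± 5.78 FPKM (SD, n = 3 each). The log2 fold change of SMC4 was -1.52 (standard error 0.11) for Si-FIBP#1 and -1.02 for Si-FIBP#2 (limma, adjusted p = 6.2e-06 and 7.3e-05). The second value was near the threshold, and without the second Si-FIBP#2 sample it was -0.92, which is less than a 2-fold change.

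SMC2 was at 30.47, 30.45 and 32.16 FPKM in Scramble, at 16.28, 17.11 and 18.94 FPKM in the Si-FIBP#1 samples and at 18.95, 18.34 and 18.25 FPKM in the Si-FIBP#2 samples. The siRNA groups overlapped each other for this gene, and both lay clearly under Scramble. The log2 fold changes came to -0.80 and -0.71 (standard error 0.066, limma adjusted p = 1.2e-05 and 2.6e-05). The proteins pair 1 to 1, but the mRNA levels were not equal. The ratio of SMC4 to SMC2 within a sample was 3.01 to 3.08 in Scramble, 1.64 to 1.99 in the Si-FIBP#1 samples and 2.16 to 2.76 in the Si-FIBP#2 samples. The 3 ranges did not overlap. This ratio was looked at after the values had been seen and was not tested.

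In condensin I the kleisin and the NCAPG subunit fell by more than NCAPD2. NCAPH, the kleisin that closes the condensin I ring, was at 39.12, 32.03 and 37.55 FPKM in Scramble, at 7.96, 10.25 and 10.94 FPKM in the Si-FIBP#1 samples and at 12.88, 15.04 and 16.13 FPKM in the Si-FIBP#2 samples. The 3 groups did not overlap, and the Si-FIBP#1 mean was 26.8% of the Scramble mean against 40.5% with Si-FIBP#2. The log2 fold changes came to -1.80 and -1.25 (standard error 0.13, limma adjusted p = 4.4e-06 and 4.4e-05). Ordered from the deepest fall, NCAPH stood at rank 32 of the 14985 tested genes with Si-FIBP#1 and at rank 156 with Si-FIBP#2.

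NCAPG, a HEAT-repeat subunit of condensin I, was at 46.68, 46.52 and 47.33 FPKM in Scramble, at 14.98, 15.08 and 16.11 FPKM in the Si-FIBP#1 samples and at 20.18, 18.86 and 20.95 FPKM in the Si-FIBP#2 samples. Replicates were tight, with SDs of 0.429, 0.626 and 1.06 FPKM, and the 3 groups were separate. The log2 fold changes came to -1.55 and -1.19 (standard error 0.059, limma adjusted p = 3.1e-07 and 1.0e-06). NCAPD2, the other HEAT-repeat subunit and the most abundant of the 10 genes in every group, was at 133.11, 131.23 and 137.31 FPKM in Scramble, at 79.06, 81.54 and 82.92 FPKM in the Si-FIBP#1 samples and at 73.62, 80.21 and 75.65 FPKM in the Si-FIBP#2 samples. Its siRNA groups overlapped each other, and the fall left it at 60.6% and 57.1% of Scramble. On the log2 scale this was -0.71 and -0.80 (standard error 0.048, limma adjusted p = 3.5e-06 and 2.3e-06), under the 2-fold threshold.

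In condensin II a single subunit passed the 2-fold threshold. NCAPG2, the counterpart of NCAPG, was at 44.96, 43.20 and 45.01 FPKM in Scramble, at 16.20, 17.75 and 18.61 FPKM in the Si-FIBP#1 samples and at 15.26, 15.39 and 13.76 FPKM in the Si-FIBP#2 samples. It was the only one of the 4 called genes whose Si-FIBP#2 samples were below its Si-FIBP#1 samples. The log2 fold changes came to -1.30 and -1.52 (standard error 0.069, limma adjusted p = 1.0e-06 and 6.9e-07). With Si-FIBP#2 it had the deepest fall of the 10 genes, at rank 56 of all tested genes.

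NCAPH2, the condensin II kleisin, was at 27.24, 23.71 and 25.82 FPKM in Scramble, at 12.45, 12.59 and 12.11 FPKM in the Si-FIBP#1 samples and at 17.33, 16.78 and 18.15 FPKM in the Si-FIBP#2 samples. The groups did not overlap, and the Si-FIBP#1 level was 48.4% of Scramble in FPKM, past a 2-fold change, while the log2 fold change of -0.99 on the scale of FPKM + 1 fell just short of the threshold. It was called with Si-FIBP#1 when the pseudocount was 0.1 (-1.04), after scaling to TPM (-1.03) or by median ratios (-1.09), and without the second Scramble sample (-1.04). With Si-FIBP#2 the change was -0.53 (limma adjusted p = 0.000174). With the most abundant transcript alone the changes were smaller, at -0.42 for Si-FIBP#1 and -0.13 for Si-FIBP#2 (limma adjusted p = 0.317 for the latter).

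NCAPD3, the HEAT-repeat subunit of condensin II that corresponds to NCAPD2, changed least in the values summed per gene. It was at 25.48, 21.12 and 22.10 FPKM in Scramble, at 16.27, 18.66 and 18.88 FPKM in the Si-FIBP#1 samples and at 19.31, 19.36 and 18.01 FPKM in the Si-FIBP#2 samples. The highest siRNA sample was close to the lowest Scramble sample. The log2 fold changes came to -0.33 (limma adjusted p = 0.00947) and -0.26 (adjusted p = 0.029), with a standard error of 0.085. The Si-FIBP#2 change of the summed values depended on single samples. Without the first Scramble sample it was -0.19 (limma adjusted p = 0.0999) and without the third Si-FIBP#2 sample -0.23 (adjusted p = 0.0916). It also missed the threshold with no filter on low values (adjusted p = 0.0598). Over all alternatives it ran from -0.43 to -0.19. The main transcript, ENST00000534548, was at 15.74, 15.99 and 15.92 FPKM in Scramble and at 10.77 to 12.52 FPKM in the 6 siRNA samples. A transcript of 343 nt, ENST00000525432, was at 4.64, 0.00 and 1.59 FPKM in Scramble.

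**Figure D2:**
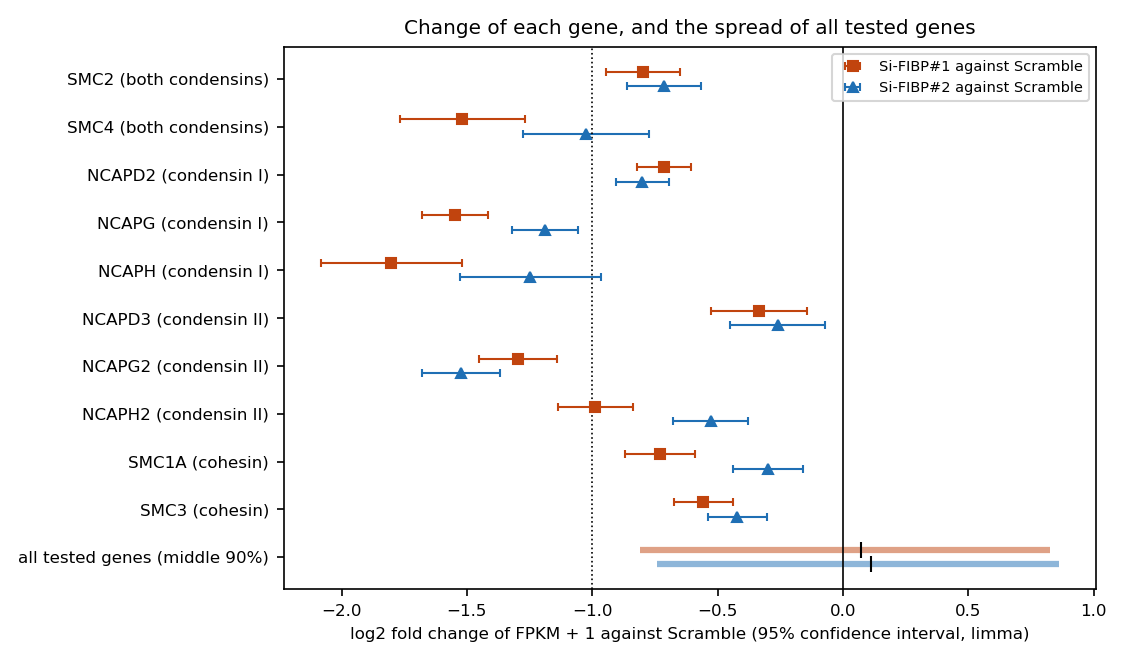
Log2 fold change of FPKM + 1 against Scramble (horizontal axis) for each gene, with squares for Si-FIBP#1, triangles for Si-FIBP#2, bars for the 95% confidence interval in limma, a dotted line at the 2-fold threshold and, in the lowest row, the middle 90% of all tested genes with its median. Values run from -1.80 (NCAPH, Si-FIBP#1) to -0.26 (NCAPD3, Si-FIBP#2), and all 20 intervals lie below 0.

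Each condensin I subunit was then set against its condensin II counterpart within the same sample. The ranges are of plain FPKM ratios, while the log2 differences and tests use FPKM + 1, so a library's scaling cancels in the first and only nearly in the second. The ratio of NCAPD2 to NCAPD3 was 5.22 to 6.21 in Scramble, 4.37 to 4.86 in the Si-FIBP#1 samples and 3.81 to 4.20 in the Si-FIBP#2 samples. No siRNA sample reached the lowest Scramble sample, and the mean log2 ratio was lower by 0.46 in the 6 siRNA samples (-0.46, two-sided exact permutation test, p = 0.0119). The kleisin ratio of NCAPH to NCAPH2 was 1.35 to 1.45 in Scramble, 0.639 to 0.903 in the Si-FIBP#1 samples and 0.743 to 0.896 in the Si-FIBP#2 samples. The condensin I kleisin was thus above the condensin II kleisin in 3 of 3 Scramble samples and below it in 6 of 6 siRNA samples, a log2 difference of -0.77 (two-sided exact permutation test, p = 0.0119). This p is the smallest that the 84 splits of 9 samples allow. Adjusted over the 3 ratios by Benjamini-Hochberg it was 0.0179 for both. The test pools the samples of both siRNAs, so its p does not measure the spread between siRNAs. In Scramble, short NCAPH transcripts of 779 and 673 nt held 26.9% and 7.62% of the gene's FPKM. Which kleisin is higher in Scramble can therefore depend on counting them.

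The third pair did not follow. NCAPG to NCAPG2 was 1.04 to 1.08 in Scramble, 0.85 to 0.925 in the Si-FIBP#1 samples and 1.23 to 1.52 in the Si-FIBP#2 samples. Relative to Scramble the ratio was lower with one siRNA and higher with the other, by log2 differences of -0.25 and 0.33, and the siRNA samples together differed from Scramble by 0.042 (two-sided exact permutation test, p = 0.857, adjusted p = 0.857). The sign of the last value turned when a single Si-FIBP#2 sample was left out, at -0.011 without the first and -0.049 without the third.

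**Figure D3:**
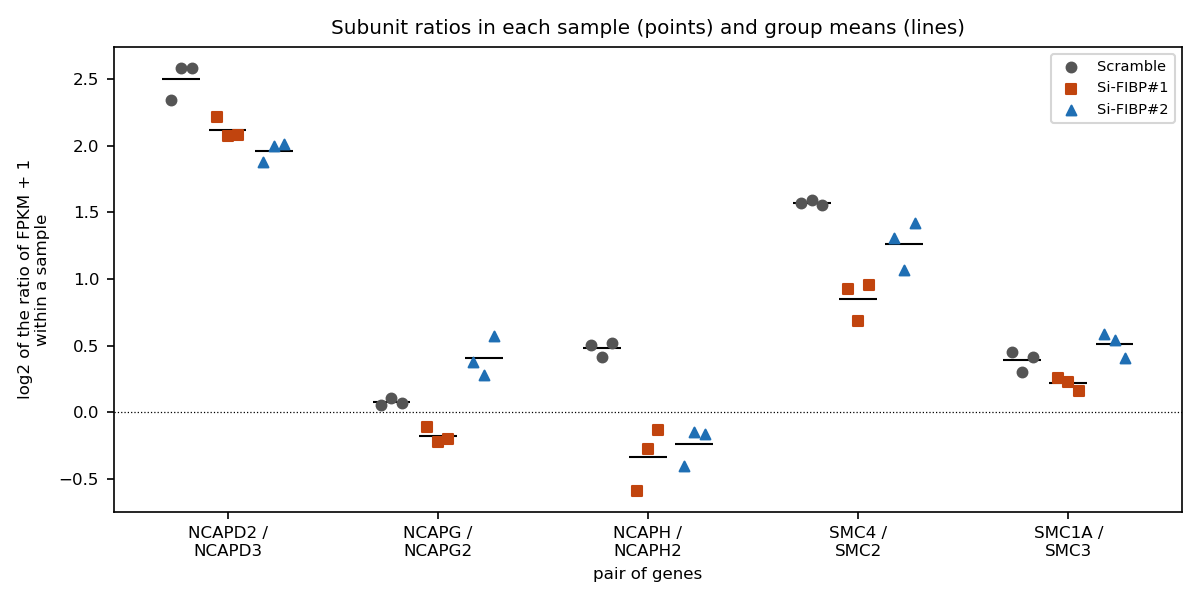
Log2 of the ratio of FPKM + 1 of 2 genes within each sample (vertical axis) for 5 pairs, with circles for Scramble, squares for Si-FIBP#1, triangles for Si-FIBP#2 and lines for group means. The 6 siRNA samples lie below the 3 Scramble samples for NCAPD2 / NCAPD3, NCAPH / NCAPH2 and SMC4 / SMC2, and on either side of them for NCAPG / NCAPG2.

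In the values summed per gene the cohesin SMC core fell by less than 2-fold. The most abundant SMC1A transcript alone fell by more than 2-fold with Si-FIBP#1 (-1.20). SMC1A was at 47.31, 42.07 and 44.31 FPKM in Scramble, at 26.28, 26.72 and 26.36 FPKM in the Si-FIBP#1 samples and at 36.97, 37.49 and 33.72 FPKM in the Si-FIBP#2 samples. The groups did not overlap, and the Si-FIBP#2 samples lay between the others. The log2 fold changes came to -0.73 and -0.30 (standard error 0.062, limma adjusted p = 1.5e-05 and 0.00326). SMC3, its partner, was at 34.26, 33.95 and 32.98 FPKM in Scramble, at 21.77, 22.61 and 23.45 FPKM in the Si-FIBP#1 samples and at 24.31, 25.35 and 25.11 FPKM in the Si-FIBP#2 samples. Its log2 changes came to -0.56 and -0.42 (standard error 0.053, limma adjusted p = 2.9e-05 and 0.000167). SMC1A to SMC3 stayed within 1.12 to 1.52 in all 9 samples, with the Si-FIBP#1 samples at 1.12 to 1.21, the Scramble samples at 1.24 to 1.38 and the Si-FIBP#2 samples at 1.34 to 1.52, a description with no test.

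By complex, the summed level of NCAPD2, NCAPG and NCAPH went from 210 to 222 FPKM in Scramble to 102.0 to 110 FPKM in the Si-FIBP#1 samples and 107 to 114 FPKM in the Si-FIBP#2 samples. NCAPD3, NCAPG2 and NCAPH2 together went from 88.0 to 97.7 FPKM to 44.9 to 49.6 and 49.9 to 51.9 FPKM. SMC1A and SMC3 together went from 76.0 to 81.6 FPKM to 48.1 to 49.8 and 58.8 to 62.8 FPKM. The median log2 fold change was -1.55 for Si-FIBP#1 and -1.19 for Si-FIBP#2 for the 3 condensin I subunits, -0.99 and -0.53 for the 3 condensin II subunits, and -0.64 and -0.36 for the pair of cohesin genes. These medians are over 2 or 3 genes and describe those genes only. The condensin I medians are the values of NCAPG, and the condensin II medians those of NCAPH2, whose change depended on the transcript. The medians set condensin I and condensin II further apart than the summed levels do.

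The depth of the fall differed between the siRNAs for several genes. Against Si-FIBP#1, 5 of 10 genes were higher with Si-FIBP#2 at an adjusted p under 0.05 in limma, where 9.58% of all tested genes were. These were SMC4, NCAPG, NCAPH, NCAPH2 and SMC1A, with log2 differences of 0.36 (NCAPG) to 0.55 (NCAPH). None of the 10 genes differed by more than 2-fold (background 0.561%), and at an unadjusted p under 0.05 in limma 7 of 10 differed in one direction or the other, where 29.9% of all tested genes did. NCAPG2 differed the other way by -0.23 (95% confidence interval -0.38 to -0.074, limma adjusted p = 0.053), past the threshold under 4 of the alternatives. Of the 5 calls, those of SMC4, NCAPH and NCAPH2 were lost under at least 1 alternative, with adjusted p in limma of up to 0.0673, 0.138 and 0.0991. For SMC2 the difference was 0.084 (interval -0.063 to 0.23), for NCAPD2 -0.085 (-0.19 to 0.022), for NCAPD3 0.073 (-0.12 to 0.26) and for SMC3 0.14 (0.017 to 0.25), and these missed the threshold in limma (adjusted p = 0.118 for SMC3 and above for the others). FIBP itself averaged 6.52 ± 1.93 FPKM in the Si-FIBP#1 samples and 7.09 ± 1.15 FPKM in the Si-FIBP#2 samples (SD, n = 3).

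The order of the levels changed between the groups. In Scramble it ran NCAPD2 (134 FPKM), SMC4 (94.3), NCAPG (46.8), SMC1A (44.6), NCAPG2 (44.4), NCAPH (36.2), SMC3 (33.7), SMC2 (31.0), NCAPH2 (25.6) and NCAPD3 (22.9). Among neighbours in this order, NCAPG with SMC1A, SMC1A with NCAPG2, NCAPH with SMC3 and NCAPH2 with NCAPD3 had overlapping ranges. With Si-FIBP#1 NCAPH was the lowest of the 10 genes (9.72 FPKM) and NCAPD3 the fifth, at 17.9 FPKM, with a range that overlapped that of NCAPG2. With Si-FIBP#2 NCAPH (14.7 FPKM) and NCAPG2 (14.8 FPKM) were the lowest and overlapped. NCAPD3, the lowest gene in Scramble, was above NCAPG, NCAPH and NCAPH2 in each Si-FIBP#1 sample, and above NCAPH and NCAPG2 in each Si-FIBP#2 sample.

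The 10 genes had 111 transcripts in the deposited data, 9 of them assembled from the reads, and 53 reached a mean of 1 FPKM in a group. Of these, 27 were lower in all 6 siRNA samples than in all 3 Scramble samples, 2 were higher in all 6, and 24 overlapped. Of all 49342 transcripts at this level, 11.6% were lower and 13.0% higher in this sense. SMC3 was quantified almost wholly through ENST00000361804, which held 100% of the gene's FPKM in Scramble. For NCAPG 90.7% came from ENST00000251496, which went from 42.5 FPKM to 14.2 and 18.6 FPKM. How reads are shared among overlapping transcripts is an estimate, so a shift between transcripts of a gene can be a shift of that estimate.

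For NCAPH2 and SMC1A the result depended on the transcript. ENST00000420993, the most abundant NCAPH2 transcript, was at 9.22 FPKM in Scramble and at 6.66 and 8.34 FPKM with the siRNAs, while ENST00000395701 went from 7.35 to 2.19 and 3.63 FPKM. With the most abundant transcript alone, the NCAPH2 change was -0.42 for Si-FIBP#1 and -0.13 for Si-FIBP#2 (limma adjusted p = 0.00914 and 0.317). The share of ENST00000420993 in the gene rose from 36.0% to 53.8% and 47.9%, as a description of group means. For SMC1A it was the reverse. ENST00000322213 went from 27.0 to 11.2 and 19.1 FPKM, a log2 change of -1.20 with Si-FIBP#1 that passed the 2-fold threshold, while a short transcript of 838 nt, ENST00000470241, was at 6.94, 7.03 and 5.99 FPKM. A transcript of 9957 nt assembled at SMC1A was among the 2 that were higher in all 6 siRNA samples, at 1.79 FPKM in Scramble and 3.17 and 2.36 FPKM with the siRNAs. The other was ENST00000534532 of NCAPD3, at 0.033 FPKM in Scramble and 0.687 and 1.61 FPKM.

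**Figure D4:**
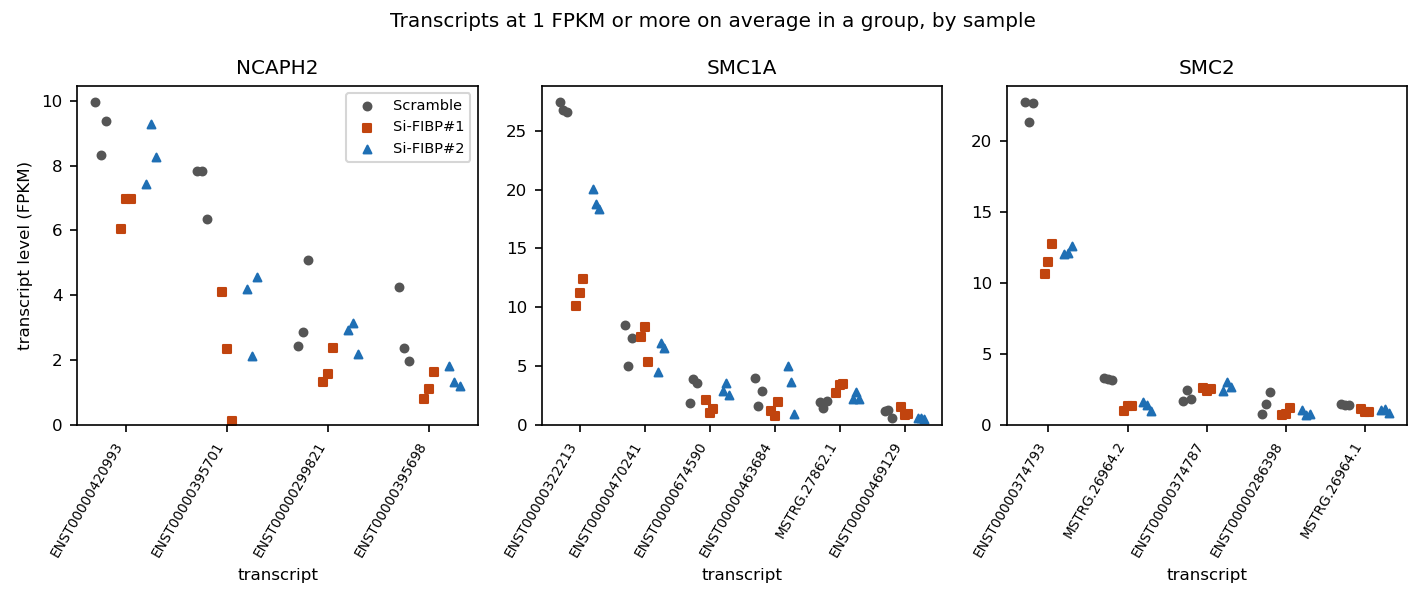
Level in FPKM (vertical axes, from 0) of each transcript of NCAPH2, SMC1A and SMC2 that averaged 1 FPKM or more in a group, with circles for Scramble, squares for Si-FIBP#1 and triangles for Si-FIBP#2 samples. For the most abundant NCAPH2 transcript (ENST00000420993) 1 of the 6 siRNA samples (9.30 FPKM, Si-FIBP#2) lies within the Scramble range and 5 lie below it, and all 6 lie below Scramble for ENST00000322213 of SMC1A and ENST00000374793 of SMC2.

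Other genes of the same machinery were read from lists of 39 genes, of which 37 passed the filter. Of these 37, Si-FIBP#1 lowered 10 past both thresholds (background 3.11%) and Si-FIBP#2 lowered 6 (2.13%). A rise past both thresholds was seen for 0 of 37 genes with either siRNA in limma (background 2.55% and 2.92%). At an adjusted p of 0.05 alone, 21 were lower and 4 higher with Si-FIBP#1, while 18 were lower and 7 higher with Si-FIBP#2 (background 19.9% and 17.7% for lower, 27.8% and 31.1% for higher). The median log2 fold change of the 37 genes was -0.24 and -0.32. SMC1B and RAD21L1, meiotic cohesin genes, were under 1 FPKM in every group and were not tested.

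Among the remaining cohesin subunits 4 of 5 tested genes fell with Si-FIBP#1 and 3 of 5 with Si-FIBP#2 by adjusted p alone, against the 19.9% and 17.7% of all tested genes given above. STAG3, the subunit best known from meiotic cohesin, was the one called gene, from 26.8 to 12.8 FPKM with Si-FIBP#1 (log2 fold change -1.01, limma adjusted p = 3.5e-05) and to 16.8 FPKM with Si-FIBP#2 (-0.65). RAD21, the kleisin of mitotic cohesin, named after its values had been seen, went from 145 ± 3.02 to 89.1 ± 4.47 and 93.9 ± 2.35 FPKM (SD, n = 3), log2 changes of -0.70 and -0.63 that both passed the test in limma. REC8, the meiotic kleisin, was at 1.35, 1.86 and 1.65 FPKM and did not pass the test with either siRNA.

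Of 5 genes of cohesin loading and release, 1 was lower and 0 higher by adjusted p alone with Si-FIBP#1 in limma, and 1 was lower and 3 higher with Si-FIBP#2 (background 19.9% and 17.7% for lower, 27.8% and 31.1% for higher). PDS5A, which binds the cohesin ring and regulates its release, was at 46.3 ± 0.54 FPKM in Scramble and at 20.9 ± 0.788 and 20.4 ± 1.66 FPKM with the siRNAs (SD, n = 3), and it was called with both (log2 fold change -1.11 and -1.15). Its paralogue PDS5B and the loader subunits NIPBL and MAU2 were higher with Si-FIBP#2 at an adjusted p under 0.05 in limma, by 0.36, 0.36 and 0.34, and only NIPBL was after median ratio scaling. With Si-FIBP#1 their changes of 0.16, 0.099 and 0.22 missed the threshold in limma (adjusted p = 0.156, 0.362 and 0.0915). PDS5B and MAU2 were named after their values had been seen. For the genes that establish and protect cohesion, 4 of 6 fell with each siRNA by adjusted p alone (background 19.9% and 17.7%) and 3 were called with each (background 3.11% and 2.13%). ESCO2, which acetylates SMC3 in S phase, went from 9.14 to 2.70 and 4.04 FPKM, and with Si-FIBP#2 it was only just past the 2-fold threshold. CDCA5 (sororin) went from 50.2 to 19.0 and 20.3 FPKM and SGO1 (shugoshin) from 10.4 to 3.15 and 4.14 FPKM. HDAC8, which deacetylates SMC3, rose from 20.1 to 29.5 and 27.1 FPKM (log2 fold change 0.54 and 0.42, limma adjusted p = 0.000276 and 0.00119), and this direction held under both other scalings.

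ESPL1 (separase) is the protease that cleaves cohesin at anaphase. Among the 37 tested genes of the cohesin, SMC5/6 and scaffold lists ESPL1 had the deepest fall, from 25.5 to 5.56 and 8.54 FPKM (-2.02 and -1.50). Its inhibitor PTTG1 (securin) went from 268 to 129 and 196 FPKM (-1.04 and -0.45), and was called with Si-FIBP#1. In the SMC5/6 complex, the third SMC family complex, 0 of 9 genes were called with either siRNA in limma (background 3.11% and 2.13% for lower, 2.55% and 2.92% for higher). With Si-FIBP#1 2 of the 9 were lower and 2 higher by adjusted p alone, and with Si-FIBP#2 also 2 and 2. These shares of 9 genes lay near those of all tested genes for lower (19.9% and 17.7%) and under them for higher (27.8% and 31.1%). Its ends were SLF1, at 4.76, 2.04 and 3.49 FPKM (-0.92 with Si-FIBP#1, limma adjusted p = 0.0011), and NSMCE2, at 33.6, 37.2 and 48.3 FPKM (0.51 with Si-FIBP#2, limma adjusted p = 0.00013). The 2 higher calls by adjusted p with Si-FIBP#1, SMC6 and NSMCE1, were lost under TPM and under median ratio scaling, and SMC6 was named after its value had been seen.

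Of 10 condensin partners and chromosome scaffold genes, 8 fell with Si-FIBP#1 and 6 with Si-FIBP#2 by adjusted p alone (background 19.9% and 17.7%), and 3 and 1 of them by more than 2-fold (3.11% and 2.13%). TOP2A, the topoisomerase that works beside condensin on mitotic chromosomes, went from 70.8 ± 1.27 to 24.3 ± 1.31 and 28.1 ± 3.69 FPKM (SD, n = 3, log2 fold change -1.50 and -1.31). KIF4A, a chromokinesin that binds condensin I, went from 39.5 to 16.7 and 21.7 FPKM, and MKI67, the coat protein of mitotic chromosomes, from 50.5 to 17.2 and 25.6 FPKM. Both were called with Si-FIBP#1, and with Si-FIBP#2 they changed by -0.84 and -0.97. After median ratio scaling MKI67 was called with Si-FIBP#2 as well (-1.12). AKAP8L, a nuclear anchoring protein, was the only gene of this list that rose, from 32.8 to 48.4 and 44.0 FPKM (0.55 and 0.41).

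**Figure D5:**
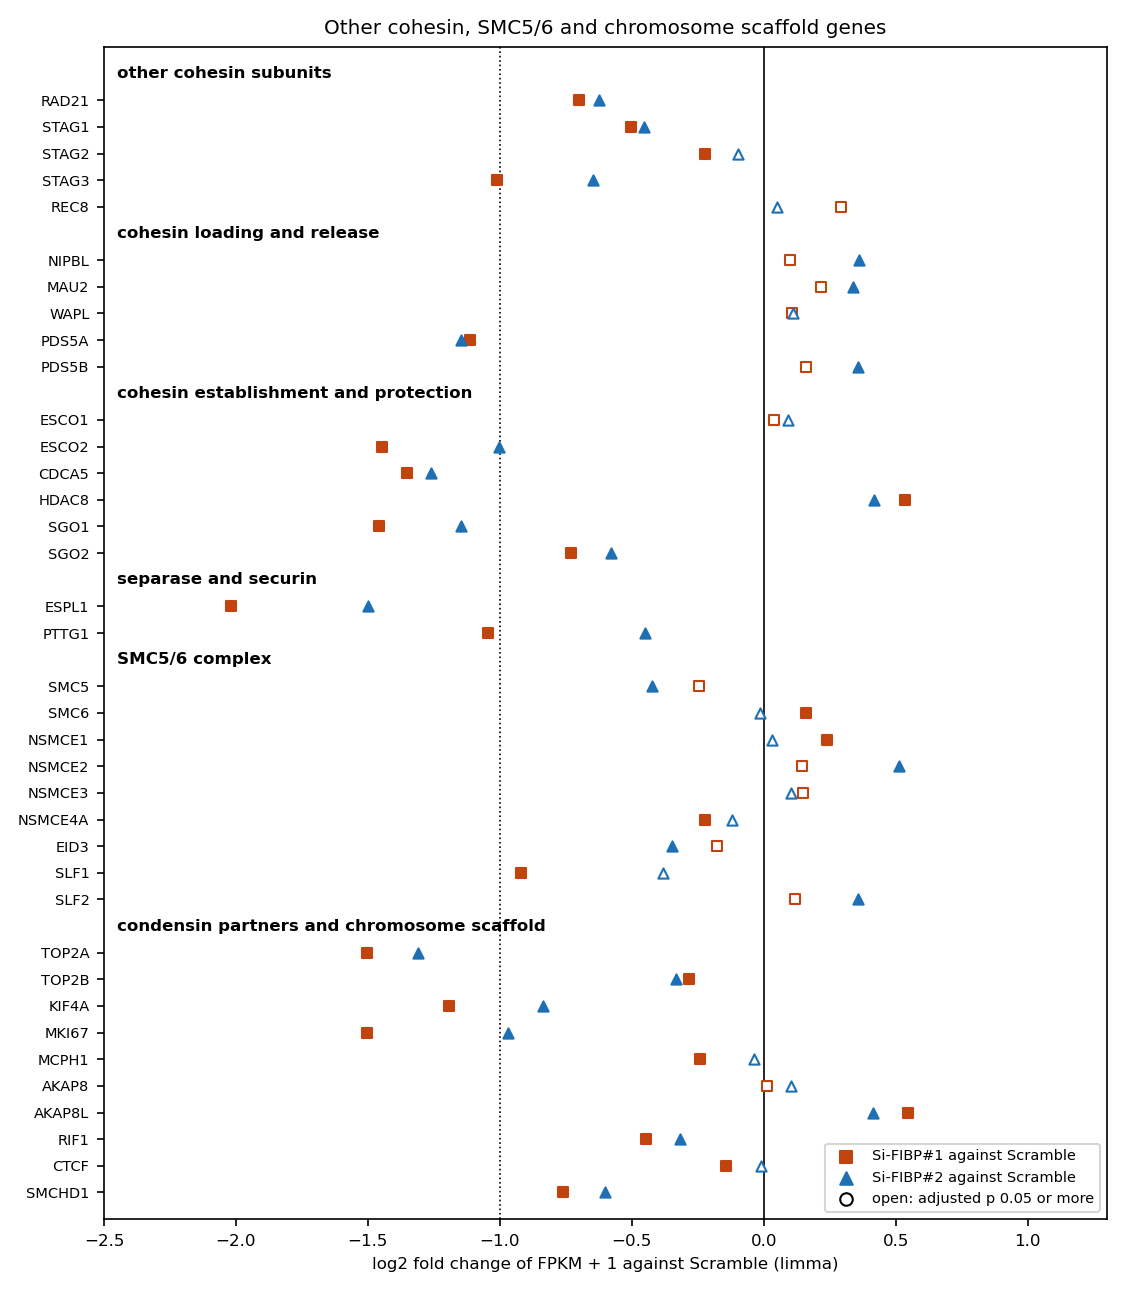
Log2 fold change of FPKM + 1 against Scramble (horizontal axis) for the 37 tested genes of the cohesin, SMC5/6 and scaffold lists, with squares for Si-FIBP#1, triangles for Si-FIBP#2, open symbols for an adjusted p of 0.05 or more and a dotted line at the 2-fold threshold. ESPL1 is farthest to the left, at -2.02 and -1.50, and the SMC5/6 genes lie between -0.92 and 0.51.

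Like the 10 genes, genes of cell division were lower in all 6 siRNA samples than in Scramble. Of 20 G2/M genes 20 were below Scramble in all 6 siRNA samples, and their summed level was 2004.5 to 2099.7 FPKM in Scramble, 643 to 701 FPKM in the Si-FIBP#1 samples and 809 to 949 FPKM in the Si-FIBP#2 samples. Of 20 S phase genes 20 were below as well (16.5% of all tested genes), with sums of 1790.4 to 1843, 624 to 652 and 703 to 767 FPKM. The sums of the Si-FIBP#2 samples lay between those of the other groups in both lists. By gene, 16 of the 20 G2/M genes were higher with Si-FIBP#2 than with Si-FIBP#1 at an adjusted p under 0.05 in limma and 0 lower, while 6 of the 20 S phase genes were higher and 1 lower (background 9.58% for higher and 5.80% for lower). The median log2 fold change of the G2/M genes was -1.50 and -1.11, and that of the S phase genes -1.38 and -1.17. Both lists were beyond the members' -0.89 and -0.76. The 8 condensin genes were at -1.14 and -0.91, and the 3 condensin I subunits among them at -1.55 and -1.19. The lists were not tested against each other. The summed mitochondrial transcripts were 41746 to 43447 FPKM in Scramble, 60226 to 65037 in the Si-FIBP#1 samples and 50511 to 54068 in the Si-FIBP#2 samples. The share of these shifts in the changes of the 10 genes was not tested.

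The genes outside the 10 whose levels over the 9 samples were most like the mean log2(FPKM + 1) of NCAPD2, NCAPG and NCAPH were MYBL2 (Pearson r = 0.9968), WNT5B, KIFC1, DNAJB1 and GINS2 (0.9958). For NCAPD3, NCAPG2 and NCAPH2 they were SRSF1 (0.9965), TUBB4B, CKS1B, MCM4 and MCM3 (0.992). The 9 points of each correlation come from 3 groups, so it mainly states that the group means have a like pattern. MYBL2 went from 65.2 to 16.7 and 22.1 FPKM and SRSF1 from 128 to 71.0 and 77.2 FPKM.

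The positions of the 10 genes (GENCODE release 29, GRCh38) lie on 10 chromosomes, from SMC4 at chr3:160399274-160434962 and NCAPH at chr2:96335787-96373845 on the plus strand to NCAPG2 at chr7:158631311-158704829 on the minus strand. Whether reads were counted by strand is not given in the sources used here, so overlapping genes could share reads. TRIM59 lies opposite SMC4 with an overlap of 2518 bases and was itself lower, at 22.4 FPKM in Scramble and 10.5 FPKM over the siRNA samples. MRPL51, opposite the start of NCAPD2 over 486 bases, was at 313 and 353 FPKM, and LCORL, opposite NCAPG over 3664 bases, at 8.14 and 8.02 FPKM. For NCAPD3 the opposite genes JAM3 and VPS26B were at 12.7 and 17.9 FPKM in Scramble and at 14.6 and 24.9 FPKM over the siRNA samples. These 5 overlapping genes were picked after their values had been seen, and IFT80, opposite SMC4 over 607 bases, was at 18.7 and 20.3 FPKM. What such overlaps add to the values of these genes was not tested.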

How the data were processed

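The RNA-seq samples of H1299 cells comprised 3 Scramble, 3 Si-FIBP#1 and 3 Si-FIBP#2 samples grouped by the sample labels. The authors deposited 1 table per sample of FPKM values per transcript, rounded to 2 decimals, for Ensembl and assembled transcripts. The unit was inferred from the values. The submitters' processing notes name HISAT2 and StringTie without a version. The genome build, annotation release and strand setting are not given in the sources used here. Assembled transcripts took 5.45% to 5.84% of the FPKM, and how fragments were divided among transcripts can move a gene's value.

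Transcript FPKM were summed per gene identifier. Genes that reached 1 FPKM in 3 or more samples were fitted on log2(FPKM + 1) with limma 3.58.1 in R 4.3.3 (empirical Bayes with a mean-variance trend, all 9 samples in 1 fit), and p-values were adjusted by Benjamini-Hochberg over the 14985 genes. A gene was called at an adjusted p under 0.05 and a fold change over 2, the thresholds of the study's methods. Each siRNA and both together were compared with Scramble, and the siRNAs with each other. Condensin I to condensin II ratios were compared by two-sided exact permutation tests over samples. No count test was run, since the values are not counts. FPKM carry no counting interval, so precision is given by the spread between samples.

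For the depth, the FPKM worth of 1 fragment was fitted on 8100 single-transcript genes, after 260 to 300 nt had been taken off the length (mean cosine 0.766 to 0.821, where 1 would be whole fragments throughout). The limma fit and the depth fit were each checked on simulated data. Gene positions came from GENCODE release 29 and promoter windows from RefSeq (GRCh38.p14). Further tools were Python 3.11.15, pandas 2.3.3, numpy 2.4.6, scipy 1.17.1 and matplotlib 3.10.9.

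The members, lists and alternatives were chosen with earlier results of these data known. Named genes were FIBP, the 10 members, listed genes that were called or at the end of a list, and the 5 genes most correlated with each condensin's mean, beside listed genes under the filter and markers. Other genes are marked as such. Alternatives tried were log2(FPKM + 0.1), dropping the filter or raising it to 5 FPKM, TPM and median ratio scaling, Ensembl transcripts or the most abundant transcript only, the replicate number as a block, only the compared groups in the fit, no variance trend, no fold change threshold and leaving out each sample. Of 12 markers of other cell types, CD68 reached 1 FPKM in every sample, COL1A1 in 1 Si-FIBP#1 and 1 Si-FIBP#2 sample and ALB in 1 Si-FIBP#2 sample, and the list summed to 31.8 to 33.2, 39.3 to 42.1 and 52.4 to 68.6 FPKM in the 3 groups.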

Additional observations from a re-analysis of the deposited data

Results flagged for a closer look

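The depth of the fall differed between the siRNAs for 5 genes, in a test of the difference between Si-FIBP#2 and Si-FIBP#1 within the fit over all genes. SMC4 was higher with Si-FIBP#2 by 0.49 on the log2 scale (limma, adjusted p = 0.0173), in 3 of 3 samples above the highest Si-FIBP#1 sample. The adjusted p for SMC4 went above 0.05 with no filter on low values (0.0568) and without any of 4 samples, at most 0.0673 without the third Si-FIBP#2 sample. NCAPG was higher by 0.36 (limma, adjusted p = 0.00445), and its adjusted p reached at most 0.0236 over the alternatives. NCAPH was higher by 0.55 (limma, adjusted p = 0.0172), with an adjusted p of 0.138 when the most abundant transcript alone was used, 0.0552 with no filter, 0.0509 without the first Si-FIBP#1 sample and 0.0673 without the third Si-FIBP#2 sample. NCAPH2 was higher by 0.46 (limma, adjusted p = 0.00249), and with the most abundant transcript alone the adjusted p was 0.0991. SMC1A was higher by 0.43 (limma, adjusted p = 0.00246), with an adjusted p of at most 0.0118 over the alternatives. Since each of these differences rests on 3 samples against 3, a real difference of smaller size in the other 5 genes could have gone undetected.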

How the results depend on the processing

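Over the alternatives, 743 of 750 single-gene values stayed on the same side of 0 and of the call threshold. A gene under 2-fold counts here as the same even where its adjusted p went above 0.05. The 750 values leave out the alternative without a fold change threshold. Without a fold change threshold all 10 genes passed with Si-FIBP#1, 10 with Si-FIBP#2, 10 with both together and 5 between the siRNAs, in place of 4, 4, 4 and 0. Leaving out single samples gave 4 to 5, 3 to 4, 4 to 4 and 0 to 0 called genes, and log2 ratio differences of -0.54 to -0.42 for NCAPD2 to NCAPD3, -0.049 to 0.11 for NCAPG to NCAPG2 and -0.80 to -0.71 for NCAPH to NCAPH2. NCAPG to NCAPG2 changed sign at -0.011 and -0.049 without the first or the third Si-FIBP#2 sample. The most abundant transcript alone turned the small NCAPD3 difference between the siRNAs to -0.035 (from 0.073). NCAPH2 was called with Si-FIBP#1 under 4 alternatives, SMC1A with the most abundant transcript (-1.20), and SMC4 was not called with Si-FIBP#2 without its second sample (-0.92). The cause of these shifts was not tested.

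Replicate numbers were not taken to pair the samples, since same-numbered samples' deviations correlated at -0.057 to 0.103 (others -0.142 to 0.049). Only the pair of Scramble 3 and Si-FIBP#1 3 was over 0.1. Between the siRNA groups each sample did correlate best with its own number (0.046 to 0.097, others at most 0.008), a hint from the data that the Scramble samples did not share throughout. With the replicate block the same number of genes was called in each comparison, NCAPD3 with Si-FIBP#2 had an adjusted p of 0.0508 in limma, and the ratio differences of -0.46 (NCAPD2 to NCAPD3) and -0.77 (NCAPH to NCAPH2) had an exact sign-flip permutation p of 0.25, the smallest that 3 numbers allow.

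Over all genes, the calls were 466 lower and 382 higher for Si-FIBP#1, and 319 lower and 438 higher for Si-FIBP#2. These became 564 and 296, and 481 and 291, under median ratio scaling, and 649 and 849, and 458 and 953, with a pseudocount of 0.1. With 3 samples a group and no counts, small differences in low genes could not be resolved.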
